A study of Mus musculus with 4 samples.

Results

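The regions described here are 1920 strong, gene-distal ATAC-seq peaks of mouse limb cells that were listed at E10.5 (E for embryonic day) and overlapped no peak listed at E11.5. They were chosen by the values of the peak lists: an autosomal E10.5 peak entered when its signal value was at least 2755, when its nearest edge lay more than 1 kb and at most 250 kb from the closest start site of a protein-coding gene, and when no E11.5 peak overlapped it by 1 bp or more. The E10.5 list held 99427 peaks, of which 97739 were autosomal and 19510 reached that signal. Of these, 8438 were distal, and 1920 of the 8438 (22.8%) were absent from the E11.5 list, while 6518 were shared. Among autosomal distal E10.5 peaks of any signal, 57931 of 74345 (77.9%) overlapped no E11.5 peak, so absence from the second list was the rule for weak peaks and the exception for strong ones. Both shares come from the values that chose the regions and are given as a description.

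The material was fore- and hindlimb cells of wild-type embryos at both stages, with 2 replicates per stage and no other genotype or treatment. The sample titles give the earlier stage as E10.5, whereas the protocol text says E10, and the titles were followed. Cells were dissociated with trypsin and fixed in paraformaldehyde before Tn5 transposase inserted sequencing adaptors into accessible DNA. The study as a whole asks which regulatory elements maintain En1, a homeobox gene of the ventral limb ectoderm, and En1 was the nearest gene of none of the 1920 peaks.

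Each stage is represented by 1 peak list made by the authors from both replicates, so there is no spread between replicates, no test between stages was possible, and "E10.5-only" below means listed at E10.5 and not at E11.5. The E11.5 list was the shorter, with 37548 peaks. Whether a peak missing from it reflects closed chromatin, a shallower library or the caller's threshold cannot be told apart, nor can fewer cells of a type be told apart from less accessibility per cell.

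Distal accessible regions include enhancers, stretches of DNA bound by transcription factors that act on promoters over long distances, often from within the introns of the gene they control or of a neighbour. Limb patterning genes are known for many such elements spread over large domains. Between these stages the limb bud grows out, the apical ridge and the zone of polarizing activity direct its patterning, and posterior Hox genes are active in its distal cells. Nearest-gene names below locate a peak and do not identify its target.

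A few of the 1920 regions contained annotated small or long noncoding RNA genes, and their sequences are shown because they are the members with a transcript of their own and with sequence in the RefSeq tables used here (GRCm38.p6, which has mm10 coordinates). Of all members, 4 overlapped 5 miRNA hairpins, against 5 of 1920 shared peaks of like signal with 6 hairpins. The mature 5p arms are written 5′ to 3′ with the seed, bases 2 to 8, in capitals.
mmu-miR-96-5p: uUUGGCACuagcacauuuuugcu
mmu-miR-183-5p: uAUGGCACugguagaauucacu
mmu-miR-26a-5p: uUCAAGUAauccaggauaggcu
mmu-miR-196a-5p: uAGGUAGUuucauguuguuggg
mmu-miR-12181-5p: uUGAGGGUgcauaaggacugga
The miR-96 and miR-183 hairpins lie in the same peak, chr6:30166915-30169927 (signal 5599), and their seeds share the letters UGGCAC. The miR-26a-1 hairpin lies in chr9:119031747-119034956 (signal 6540). The Mir196a-2 hairpin, in the HoxC cluster, lies in chr15:102971935-102974302 (signal 3069), whose nearest protein-coding gene is Hoxc9. miR-196 is known for targeting Hox transcripts. The Mir12181 hairpin lies in chr11:77466692-77468355 (signal 3534).

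Start sites of long noncoding RNAs (lncRNAs) fell in 62 E10.5-only peaks (3.23%, 95% Wilson interval 2.53 to 4.12), in 93 of 1920 shared peaks of like signal (4.84%, 3.97 to 5.90) and in 415 of all 6518 shared strong distal peaks (6.37%). The 62 peaks touched 67 start windows of 63 lncRNA genes, each window running from 250 bases before to 50 bases after the start, and 52 windows lay wholly inside their peak. The 4 windows below are shown in the direction of transcription. Gm41638 is in the strongest peak that holds such a start, Gm35290 carries GC boxes, 6530402F18Rik is rich in CpG, and 5730596B20Rik lies in the HoxA cluster next to Hoxa2. Capitals mark the GC box searched, GGGCGG or its reverse complement CCGCCC, with overlapping copies joined.
Gm41638 (chr17:83956754-83957053, minus strand): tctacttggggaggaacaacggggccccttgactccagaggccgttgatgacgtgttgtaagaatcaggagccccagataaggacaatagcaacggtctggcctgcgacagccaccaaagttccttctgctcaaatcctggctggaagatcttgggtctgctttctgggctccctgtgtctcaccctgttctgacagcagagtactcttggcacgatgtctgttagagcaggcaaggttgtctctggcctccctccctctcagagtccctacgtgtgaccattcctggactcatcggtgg
Gm35290 (chr17:28007231-28007530, minus strand): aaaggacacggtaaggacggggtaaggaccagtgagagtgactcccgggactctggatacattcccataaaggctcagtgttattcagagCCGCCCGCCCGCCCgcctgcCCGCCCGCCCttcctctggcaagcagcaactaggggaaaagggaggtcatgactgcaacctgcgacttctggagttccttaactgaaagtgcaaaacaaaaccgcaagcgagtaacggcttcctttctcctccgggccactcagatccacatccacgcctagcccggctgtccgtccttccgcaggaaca
6530402F18Rik (chr2:29252944-29253243, minus strand): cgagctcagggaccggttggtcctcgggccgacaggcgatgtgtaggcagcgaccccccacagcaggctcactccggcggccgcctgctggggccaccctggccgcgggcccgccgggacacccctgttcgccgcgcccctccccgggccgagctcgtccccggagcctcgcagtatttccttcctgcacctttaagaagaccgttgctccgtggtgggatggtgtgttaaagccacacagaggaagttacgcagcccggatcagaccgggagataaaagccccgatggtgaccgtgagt
5730596B20Rik (chr6:52176905-52177204, plus strand): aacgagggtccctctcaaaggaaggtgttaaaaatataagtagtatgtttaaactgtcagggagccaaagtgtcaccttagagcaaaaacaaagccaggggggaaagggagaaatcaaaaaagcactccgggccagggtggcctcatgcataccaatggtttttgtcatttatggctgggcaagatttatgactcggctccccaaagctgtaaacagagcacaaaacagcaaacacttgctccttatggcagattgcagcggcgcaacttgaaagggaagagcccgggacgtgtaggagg
The Gm35290 window has 18 CpG dinucleotides, the 6530402F18Rik window 28, the Gm41638 window 8 and the 5730596B20Rik window 7. Across the 67 windows the median was 5 CpG and 53% GC. The 503 windows in all shared strong distal peaks had a median of 9 CpG and 55% GC, the 107 windows in 1:1 shared peaks of like signal 10 CpG and 54.7% GC (a set added after seeing the data), and all 11588 lncRNA windows of the table a median of 4 CpG and 48.3% GC. A GC box on either strand was present in 9 of the 67 windows (13.4%, 7.23 to 23.6), in 198 of the 503 shared ones (39.4%, 35.2 to 43.7), in 41 of the 107 of like signal (38.3%, 29.7 to 47.8) and in 16.3% of all lncRNA windows. The letters TATAAA or TTTATA occurred in 11.9%, 10.54%, 15.9% and 15.5% of the same sets. By CpG count and GC boxes, lncRNA starts in E10.5-only peaks lay nearer to lncRNA starts in general than to those in shared peaks. By median GC content they lay nearer to those in shared peaks. A motif match is a description of these letters only.

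The share of strong distal peaks that was E10.5-only fell as the signal value rose. The signal value is the authors' total over the peak, which grows with both height and width. In 5 signal classes that each hold 384 of the 1920 peaks, the E10.5-only share was 39.2%, 35.0%, 31.4%, 24.0% and 10.8% from the lowest class to the highest. The 3 peaks just above the threshold were nearest to Bambi (2756.61), Atp2b4 (2756.22) and Shisal1 (2756.11). The 3 just below it that met every other criterion were nearest to Grip1 (2754.87), Spock1 (2754.83) and Haao (2754.81), so the threshold divides near-equal peaks. The signal of the 1920 peaks ran from 2756.11 to 23523 with a median of 3540.

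**Figure D1:**
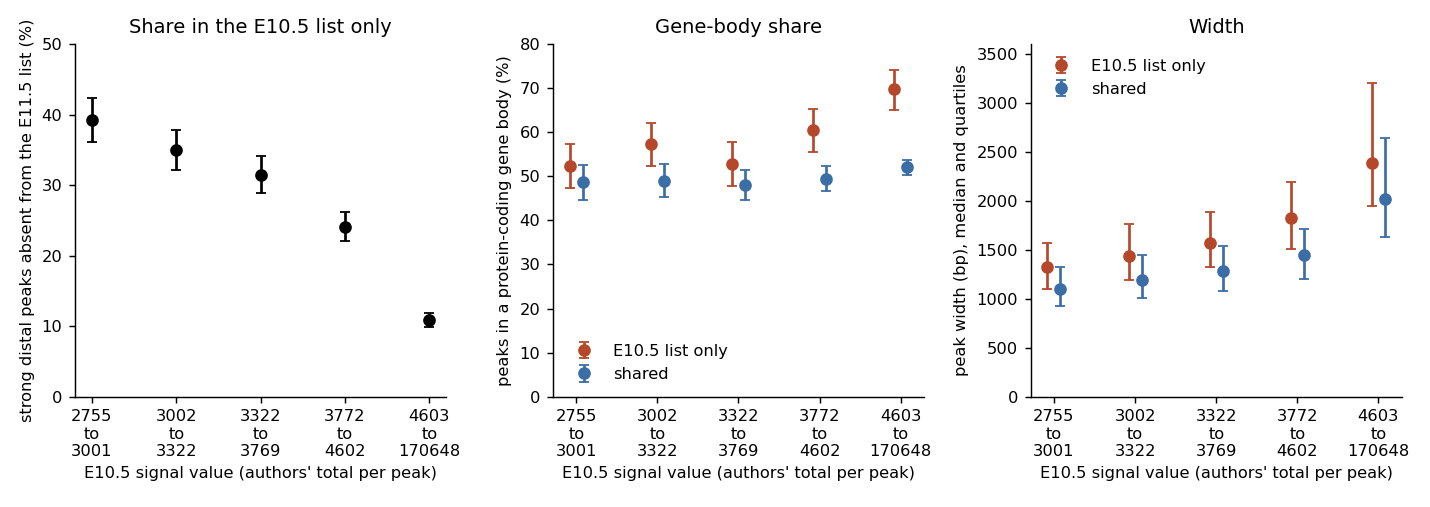
Strong distal E10.5 peaks in 5 classes of the authors' signal value (horizontal axes), with the share absent from the E11.5 list (left, %), the share in a protein-coding gene body (middle, %) and the peak width (right, bp); bars are 95% Wilson intervals in the left and middle panels and quartiles around the median on the right. The E10.5-only share falls from 39.2% to 10.8%, while the gene-body share of E10.5-only peaks is 69.8% in the highest class against 52.1% of shared peaks.

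The strongest E10.5-only peak lay 2.13 kb from a start site of Bahcc1, which encodes a chromatin protein with a BAH domain, within the lncRNA gene 2900052L18Rik (chr11:120223311-120230740, signal 23523). It ranked 68 by signal among all autosomal E10.5 peaks, and an E11.5 peak lay 0.168 kb from its edge. The second, inside Cyp26b1 (chr6:84571925-84582446, signal 20044.5), was also the widest at 10522 bp. Cyp26b1 encodes the enzyme that degrades retinoic acid in the distal limb bud. The third lay inside Ssbp3 (chr4:106980352-106990216, signal 19831), which encodes a partner of the LIM-domain-binding protein Ldb1. These ranked 132 and 138 among autosomal E10.5 peaks.

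The next in order of signal were a peak outside genes nearest to Actrt2 (17179), a peak in Macrod1 and Flrt1 (14287) and a peak in Ccdc85c nearest to Ccnk, the cyclin K gene (14217). They were followed by a peak in Prdm16 nearest to Arhgef16 (14016) and a peak in Tceanc2 (13885). Lmx1b, the LIM-homeobox gene that specifies dorsal limb identity, held 2 more in its body (13734 and 13388), and peaks in Cwc22 (12281) and Zmiz1 (12026) completed the 12 strongest. Of these 12, 10 overlapped a protein-coding gene body, the exceptions being those nearest to Bahcc1 and Actrt2.

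Ranking by −log10 p at the summit, a measure of height rather than total, gave a different set. The highest was a narrow peak of 1051 bp in Efl1, nearest to Mex3b, an RNA-binding protein gene (−log10 p 14.9, signal 7228, 6.88 per bp). The Actrt2 peak followed at 12.5 and a peak in Rxra, which encodes a retinoid X receptor, at 12.4. Peaks in Hpse2 nearest to Hps1 and in Thsd4 had 11.9 and 11.7. A further 4 of the 10 highest lay in Septin9 (11.7), in Jazf1 (11.7), in Prdm16 nearest to Arhgef16 (11.6) and in Ttll5 nearest to Tgfb3, a TGF-beta ligand gene (11.504). Only the Actrt2 peak was in both the 12 strongest and these 10.

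E10.5-only peaks were wider and lower than shared peaks of like signal. Their median width was 1662.5 bp (quartiles 1315 and 2089, range 611 to 10522). With 3 shared peaks per E10.5-only peak, matched on signal, the shared median was 1498 bp. That matching used 5760 of the 6518 shared peaks and left their median signal higher, at 4256. With 1 shared peak each, the median signals were equal to 3 digits (3540) and the shared median width was 1330.5 bp. Widths above 2 kb were found in 29.8% of E10.5-only peaks and in 11.2% of the 1:1 shared peaks, a difference of 18.6 percentage points (Newcombe interval 16.1 to 21.1). Because signal is a total, a wider peak of the same signal is lower: the median signal per bp was 2.24 against 2.83, and the median −log10 p was 8.15 against 9.45. Within each of the 5 signal classes the E10.5-only median width was the larger, from 1324 against 1100.5 bp in the lowest to 2389 against 2023 bp in the highest. Width is tied to the signal that chose the peaks, so these values are descriptive.

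Protein-coding gene bodies held more of the E10.5-only peaks than of shared peaks. The rule did not use gene bodies. They overlapped 1124 of the 1920 (58.5%, 56.3 to 60.7), 49.8% of the 3:1 shared peaks (48.6 to 51.1) and 51.3% of the 1:1 shared peaks (49.1 to 53.5). The difference was 8.70 percentage points against the former (6.13 to 11.2) and 7.24 points against the latter (4.09 to 10.4). These intervals treat neighbouring peaks as independent and cover counting error only.

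That excess was uneven. From the lowest signal class to the highest, the gene-body share of E10.5-only peaks was 52.3%, 57.3%, 52.9%, 60.4% and 69.8%, against 48.7%, 49.0%, 48.0%, 49.5% and 52.1% of shared peaks. It was the larger in every class, and the Wilson intervals of the pair were apart in the highest 2 classes. Among peaks 1 to 10 kb from a start site the shares were close, 64.0% against 62.9% (3:1) and 63.8% (1:1). At 50 to 100 kb they were 58.2% against 45.1% and 43.5%, and at 100 to 250 kb 49.6% against 40.04% and 40.1%. Distal E10.5-only peaks below the signal threshold had a gene-body share of 55.0%, and weak shared ones 47.9%, so the direction was not confined to strong peaks.

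Counting genes of any kind narrowed the difference: 69.9% of E10.5-only peaks overlapped some gene, against 66.0% (3:1) and 64.9% (1:1). Peaks that overlapped only a noncoding gene went the other way, at 11.4% against 16.2% and 13.6%. Host genes of E10.5-only peaks had a median length of 132879 bp, those of 1:1 shared peaks 107152 bp. Exons, introns and untranslated regions were not used here.

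Within a host gene, E10.5-only peaks were placed further from the promoter. For the 1088 with a single host, 25.6% of summits lay in the first of 3 equal parts of the gene body, 34.9% in the middle part and 39.5% in the last. The 939 such shared peaks of the 1:1 set were spread more evenly, at 34.6%, 32.3% and 33.1%. The difference in the first part was -9.06 points (-13.0 to -5.06) and in the last 6.40 points (2.20 to 10.6). Against the 3:1 shared peaks both were smaller, -6.75 points (-9.81 to -3.56) and 4.77 points (1.39 to 8.20). The nearest start site was a median of 39.2 kb away for E10.5-only and 32.5 kb for shared peaks, and 17.7% against 23.9% lay at 1 to 10 kb. Upstream and downstream placement differed little: 39.5% of E10.5-only and 40.2% of shared peaks were upstream, a difference of -0.625 points (-3.72 to 2.47).

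Promoters of the nearest genes were mostly listed at both stages. A peak within 1 kb of a start site of the nearest gene was listed at E10.5 for 91.2% of E10.5-only peaks and 86.5% of the 1:1 shared peaks. That difference was 4.74 points (2.75 to 6.73). At E11.5 the values were 80.8% and 78.4%, a difference of 2.40 points (-0.155 to 4.94). Against the 3:1 shared peaks the E11.5 difference was 2.50 points (0.398 to 4.52). Where the nearest gene had an E10.5 promoter peak, an E11.5 promoter peak was listed as well for 88.5% against 90.4%. Nearest genes with a promoter peak at E10.5 and none at E11.5 accounted for 10.52% of E10.5-only and 8.28% of shared peaks. The closest E11.5 peak lay a median of 11.2 kb away (range 0.101 to 403 kb), within 1 kb for 4.74% and within 50 kb for 89.3%.

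**Figure D2:**
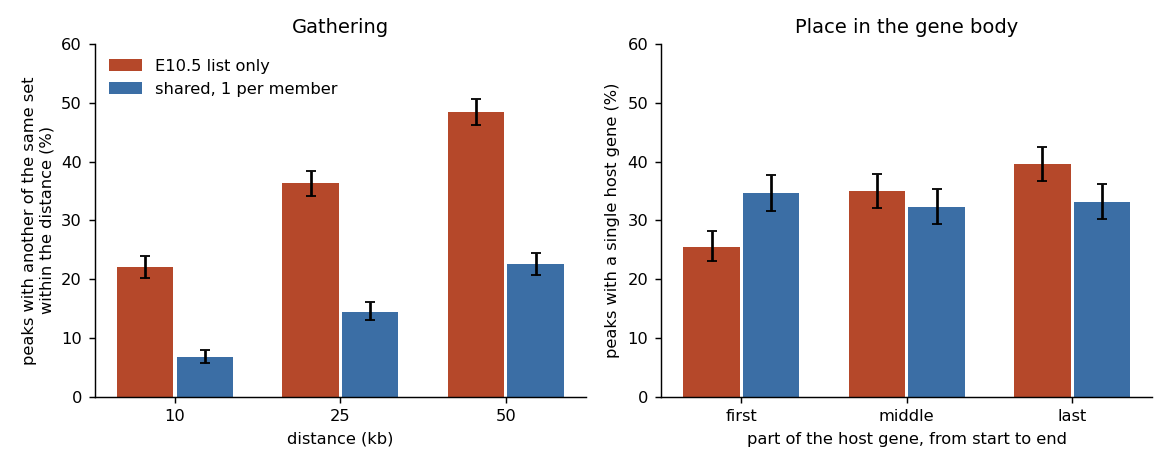
Share of peaks with another peak of the same set within 10, 25 or 50 kb (left, %), and share of summits in each of 3 equal parts of a single host gene (right, %), for E10.5-only peaks and for 1 shared peak each of like signal; bars show the share and lines the 95% Wilson interval. Within 50 kb the values are 48.5% and 22.6%, and in the first part of the gene 25.6% and 34.6%. The shared set is a thinned part of all shared peaks, which by itself lowers its values in the left panel.

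Many genes were nearest to several E10.5-only peaks. The 1920 peaks were assigned to 1212 genes, of which 868 had a single peak, 344 had 2 or more, 151 had 3 or more and 10 had 10 or more. Genes with 2 or more accounted for 1052 peaks (54.8%). The same number of shared peaks of like signal was assigned to 1596 genes, of which 248 had 2 or more, accounting for 29.8% of peaks, and no gene had more than 6. That set is a part of the 6518 shared peaks, which taken whole had 61.9% at genes with 2 or more and up to 27 at a gene. A peak of the E10.5-only set had another within 10 kb in 22.0% of cases and within 50 kb in 48.5%, against 6.82% and 22.6% in the 1:1 shared set. Taking only a part of the shared peaks removes same-set neighbours, so the lower values of the 1:1 set do not show that shared peaks gather less. Neighbours within 50 kb were also counted as pairs, so a peak counts once for each peak it lies near and dense runs weigh more. Of 5022 pairs of an E10.5-only peak with another strong distal peak, 2102 (41.9%) had an E10.5-only neighbour. For the 1:1 shared peaks it was 599 of 2679 pairs (22.4%). Over all strong distal peaks, each counted once, the share was 22.8%. In pairs with any other E10.5 peak within 50 kb, of any signal and place, the neighbour was E10.5-only in 78.9% and 68.7%.

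Gse1, which encodes a coiled-coil protein found with the CoREST histone deacetylase complex, led with 16 of 40 strong distal peaks, 15 of them in its own body. Its other 24 were shared, so the locus was rich in both kinds. Cwc22, a spliceosome gene, had 15 of 16, and Macroh2a1, the gene of a histone H2A variant, 10 of 11, so hardly any strong distal peak assigned to them was shared. Mvb12b, an ESCRT-I subunit gene, followed that pattern with 10 of 12. The Cwc22 locus is copy-variable, and the part of copy number in its peaks was not tested. Across chr13:56052332-56209675, around Macroh2a1 and Tifab, there were 12 E10.5-only and 4 shared strong distal peaks. Zmiz1, a transcriptional coactivator gene, had 12 of 19, and its neighbour Gm45915 7 of 11, all of which lay in the Zmiz1 body.

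Assignment to the nearest start site split single loci among genes. Arhgef16, a guanine nucleotide exchange factor gene, had 13 of 18, of which 10 lay in the body of the adjacent Prdm16, a zinc-finger regulator gene. Prdm16 had 11 of 16 and Actrt2, an actin-related gene on its other side, 10 of 15. Actrt2 had no promoter peak in either list. Pitpnb, a phospholipid transfer protein gene, had 10 of 13, and all 10 lay in the body of Ttc28. Septin9, a cytoskeletal gene, had 9 of 16, Zfp423, a zinc-finger factor gene, 8 of 15, and Kif26a, a kinesin-family gene, 8 of 13. Tcf7l2, which encodes a nuclear effector of Wnt signalling, had 8 of 19.

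**Figure D3:**
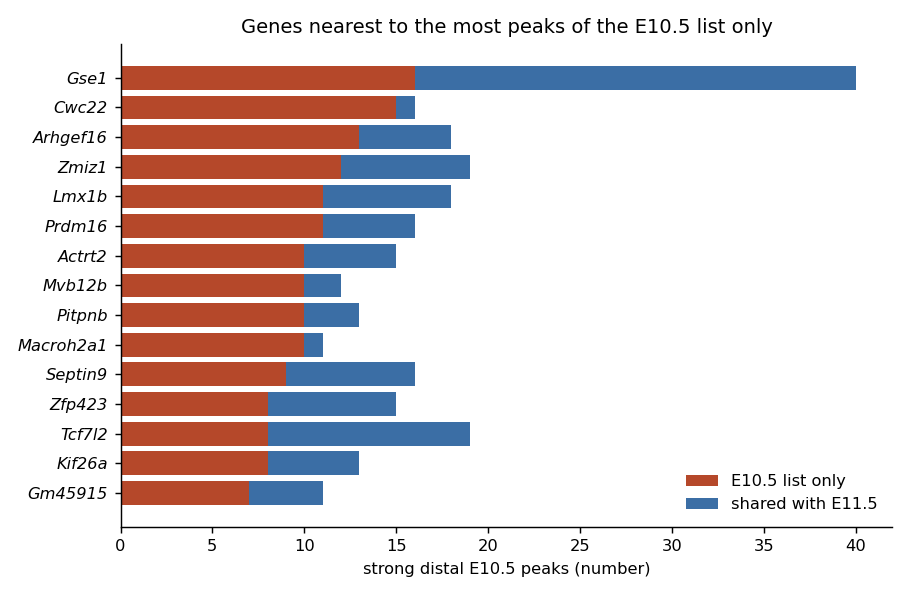
Number of strong distal E10.5 peaks (horizontal axis) assigned to the 15 genes that head the ranking by E10.5-only peaks, divided into E10.5-only and shared peaks. Gse1 has 16 E10.5-only and 24 shared peaks, while Cwc22 has 15 and 1.

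Linking E10.5-only peaks less than 50 kb apart gave 1298 runs, of which 989 were single peaks and 32 held 5 or more, together 258 peaks (13.4%). The longest in number spanned chr4:154223495-154532522 around Megf6, Arhgef16 and Prdm16, with 21 E10.5-only and 7 shared strong distal peaks. In that interval 70 of all 78 E10.5 peaks were E10.5-only, and the E11.5 list held 10 peaks. A further 15 lay just beyond, at chr4:154584865-154755179, across Prdm16 and Actrt2. The Cwc22 run, chr2:77880205-78027254, held 15 E10.5-only peaks and 1 shared peak. There 59 of 61 E10.5 peaks were E10.5-only, the E11.5 list held 2, and the members covered 29.1% of the bases. Leaving out peaks within 250 kb of Cwc22 and Prdm16 left 1879 E10.5-only peaks, with 341 genes at 2 or more and 148 at 3 or more. That took out fewer peaks than these runs hold together, so part of them stayed in. The Gse1 run, chr8:120224564-120558138, had 16 beside 22 shared ones and 36 E11.5 peaks, so it stayed densely listed at both stages. By chromosome, the E10.5-only share of strong distal peaks ran from 13.2% on chromosome 3 to 28.3% on chromosome 2.

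Of the 65 limb patterning genes listed, 25 were the nearest gene of at least 1 E10.5-only peak, with 66 peaks in all. That is 38.5% of the list, beside 1212 of 21536 genes in all (5.63%), and the list also had more strong distal peaks of either kind per gene. The 66 were 34.02% (27.7 to 40.9) of the 194 strong distal peaks assigned to such genes, beside 22.8% over all genes, and their median signal was 3537 against 3540 over all 1920. Lmx1b alone gave 11 of the 66. The list was chosen with earlier results of these data known.

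Dorsal-ventral patterning was represented by Lmx1b. Its 11 E10.5-only peaks ran from 3042 to 13734 in signal (median 5192), all were at least 2001 bp wide, and 6 lay in the gene body. Some of these nearly adjoined: chr2:33625206-33628481, chr2:33628640-33633098 and chr2:33633214-33636485. Such close peaks, here and at Cyp26b1 and Hoxd10, were counted singly and need not be separate elements. The other 7 strong distal peaks were shared, and its promoter peak was listed at both stages. Within 250 kb of its start, counting peaks nearest to Mvb12b as well, there were 18 E10.5-only and 9 shared strong distal peaks.

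Factors that set limb identity were also among these genes. Pitx1, which specifies the hindlimb, had 5 of 9, from 2766 to 4242, at 3.12 to 140 kb. Within 250 kb of its start there were 15 E10.5-only and 4 shared strong distal peaks, several of them nearest to Macroh2a1. Tbx5, the forelimb T-box gene, had 4 of 4, all in its body (signals 5453, 3689, 3227 and 3069). Tbx4, its hindlimb counterpart, had 2 of 8 (4169 and 3198). The promoters of Pitx1 (signal 7629) and Tbx5 (1769 and 1060) were listed at E10.5 and not at E11.5, whereas that of Tbx4 was listed at both. Both limb types were pooled in each sample by its label, so a fore- or hindlimb origin of these peaks cannot be told apart.

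Retinoic acid supplies a proximal signal in the early bud, and the genes that make, degrade and read it were nearest to several of these peaks. Cyp26b1 had 4 of 7: the peak of 20044.5 above, a nearly adjoining second in its body (8846) and 2 at 183 and 199 kb (3101 and 3296). The only peak within 1 kb of its start was a weak E10.5 peak (signal 325), and a shared peak of 15729 had its summit 3.47 kb into the gene. Aldh1a2, the retinoic acid synthase gene, had 1 of 2 (3466, in its body). Rxra had 7 of 10, between 3303 and 6900, 5 of them in its body, and Rara and Stra6 had 1 each, at 6076 and 4733. The whole list of 18 genes had 2 strong distal peaks of either kind per gene, against 0.392 over all genes. Of its genes, 6 (33.3%, beside 5.63% of all genes) had an E10.5-only peak, and 15 of 36 strong distal peaks were E10.5-only (41.7%, 27.1 to 57.8). Without Rxra, left out after seeing the data, the count was 8 of 26 (30.8%, 16.5 to 49.99), an interval that includes the 22.8% of all genes.

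**Figure D4:**
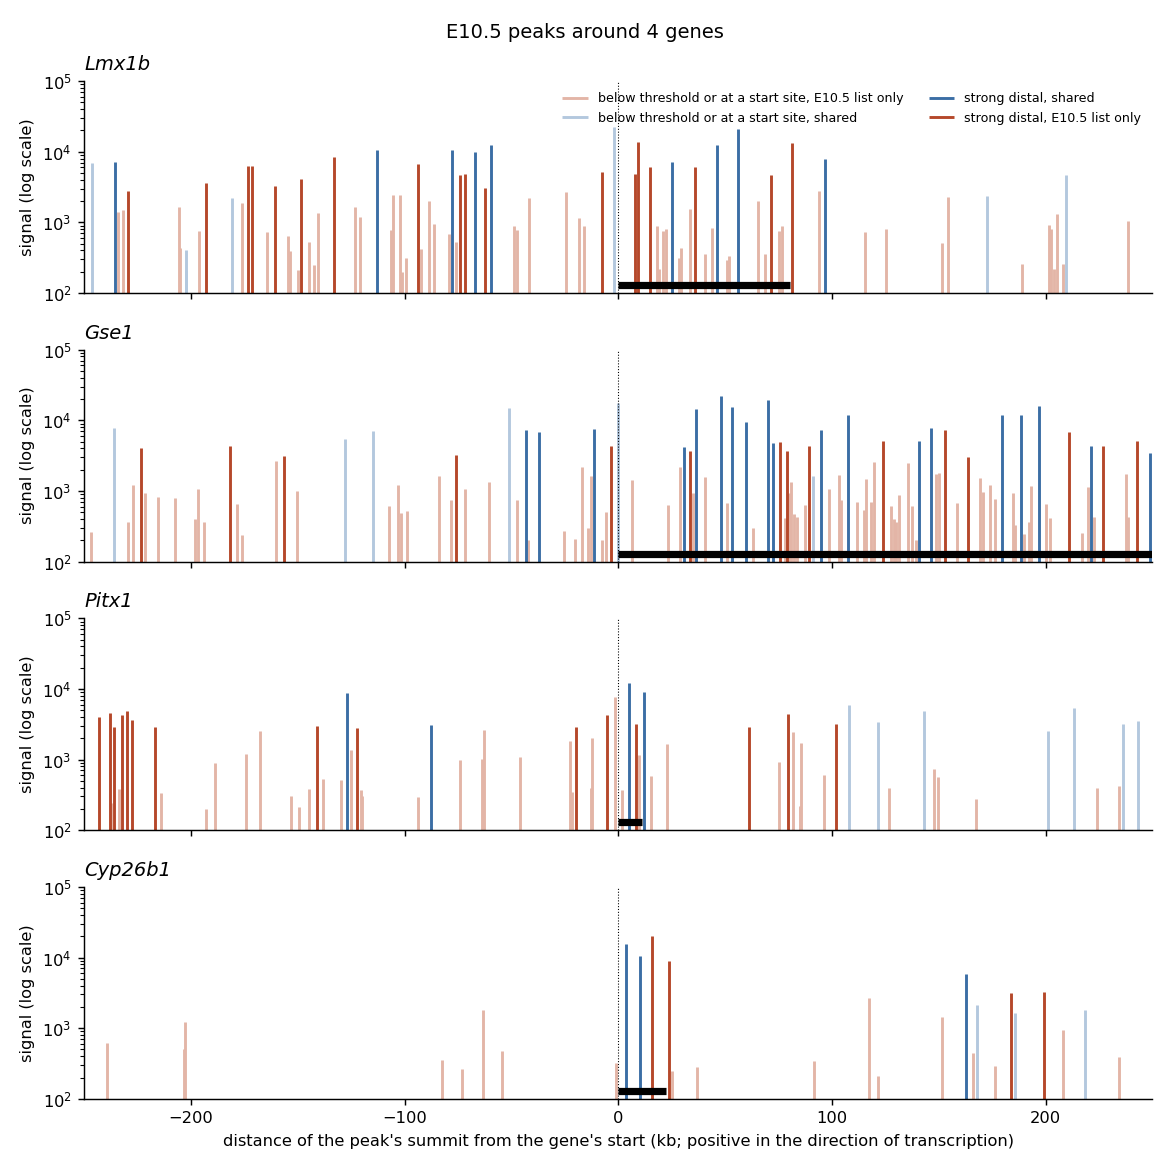
E10.5 peaks within 250 kb of the start of Lmx1b, Gse1, Pitx1 and Cyp26b1, at the distance of the summit from the start (kb, positive in the direction of transcription) and with the authors' signal value as height on a log scale; the black bar is the gene body, and colours separate strong distal from other peaks and E10.5-only from shared peaks. Strong distal peaks number 18 E10.5-only and 9 shared around Lmx1b, 15 and 19 around Gse1, 15 and 4 around Pitx1, and 4 and 3 around Cyp26b1.

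Hox, Irx, T-box and Alx genes of limb patterning came next. Hoxa13, expressed in the distal bud, had 2 of 2 (4817 and 4791), outside gene bodies at 9.15 and 14.7 kb, and Hoxd10 had 2 of 2 (5236 and 3312) within the cluster. No distal E11.5 peak was assigned to Hoxa13 or Hoxd10, although the promoter of each was listed at both stages. Irx3 and Irx5, homeobox genes of the proximal and anterior bud, had 3 of 9 and 2 of 5. A member for Irx3 lay in Fto (2975), 224 kb away. Tbx2 had 4 of 9, of which 3 lay in the neighbouring Bcas3, and Tbx3 2 of 2 (3174 and 3011). Alx4, which restrains anterior Hedgehog signalling, had 2 of 3 (3698 and 3353).

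Signalling genes of outgrowth followed. Bmp7, a ligand gene, had 5 of 11 (2947 to 5861). Fgfr2, which encodes an FGF receptor, and Wnt5a, a ligand of distal growth, had 4 of 7 each. For Wnt5a, 3 of the 4 lay in the neighbouring Erc2. The remaining genes of the list had 1 E10.5-only peak each: the transcription factor genes Sall1 (4843), Zbtb16 (4726), Lhx2 (3741), Sp9 (3447), Sall4 (3112), Etv4 (2927) and Msx2 (2810), the FGF antagonist gene Spry4 (4014) and the ligand gene Bmp2 (2784).

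Among the pathway lists, Wnt signalling had 34 E10.5-only of 87 strong distal peaks (39.1%, 29.5 to 49.6) at 13 of 32 genes (40.6%, beside 5.63% of all genes). They were led by Tcf7l2 and by Ror2, a Wnt5a receptor gene, with 6 of 12, all in its body (2761 to 4969). Tcf7l1, a repressor of the same family as Tcf7l2, had 4 of 5, all in its body. BMP and TGF-beta signalling had 23 of 85 (27.1%, 18.8 to 37.3) at 9 of 30 genes (30.0%). The inhibitory Smad genes Smad6 and Smad7 gave 6 of 10 and 5 of 18 of these. Both lists also had more strong distal peaks of either kind per gene, 2.72 for Wnt and 2.83 for BMP and TGF-beta genes, against 0.392 over all genes. The interval of the BMP list includes the 22.8% of all strong distal peaks. The gene of most E10.5-only peaks in the limb list and in the Wnt list was also left out, after seeing the data. The limb list then had 31.2% (24.9 to 38.4, without Lmx1b) and the Wnt list 38.2% (27.6 to 50.1, without Tcf7l2). Peaks of a gene share a locus, and the intervals do not allow for that. The lists were chosen with earlier results known, so a difference of any list from all genes was not tested. The lists are not separate: Cyp26b1 and Aldh1a2 stand in the limb and retinoic acid lists, Wnt5a in the limb and Wnt lists, and Bmp2, Bmp7 and Msx2 in the limb and BMP lists.

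**Figure D5:**
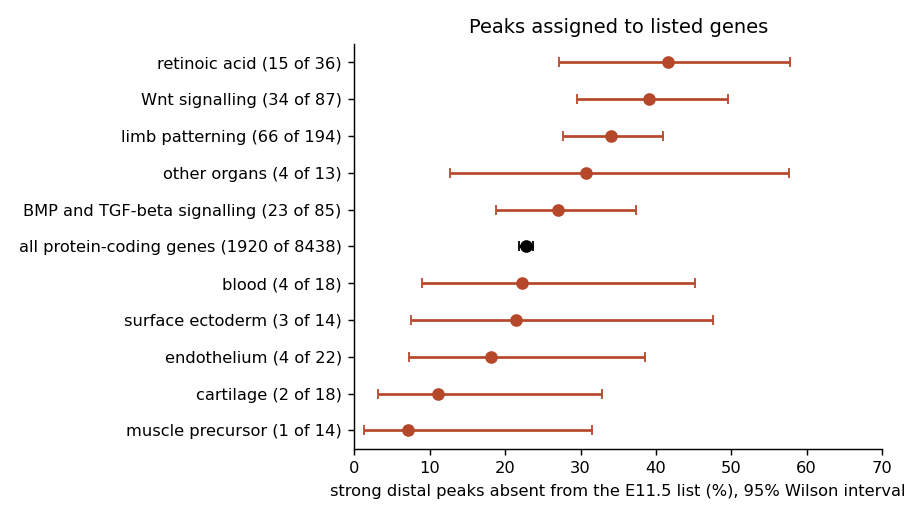
Share of strong distal E10.5 peaks that are absent from the E11.5 list (horizontal axis, %), for peaks whose nearest gene is in each list with at least 10 such peaks and for all protein-coding genes; points are shares, bars 95% Wilson intervals, and counts stand in brackets. Retinoic acid genes are at 41.7%, limb patterning genes at 34.02%, all genes at 22.8% and muscle precursor genes at 7.14%.

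Marker genes of other cells that limb buds contain had 0.778 to 1.5 strong distal peaks per gene (0.167 for nerve and glia), against 2.98 for limb patterning genes and 0.392 over all genes. The counts of E10.5-only peaks were 3 of 14 for surface ectoderm (near Krt8, Grhl3 and Tfap2c), 4 of 22 for endothelium (Ets1, Erg and Pecam1) and 4 of 18 for blood (2 in Runx1, and near Gfi1b and Lyl1). Cartilage genes had 2 of 18 (Col2a1 at 7137 and Sox5 at 3425), muscle precursor genes 1 of 14 (Cdh15) and nerve and glia genes 0 of 2. In a list of 20 genes of other organs, all 4 of 13 belonged to Pax2, a kidney and eye factor gene (2938 to 3670, with 4 of its 4 strong distal peaks E10.5-only and its promoter listed at E10.5 only). The wide intervals of these short lists, 7.57 to 47.6% for ectoderm for example, include 22.8%. The part of cell makeup in the E10.5-only set was not tested.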

How the data were processed

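The authors deposited 1 narrowPeak list per stage, named for both replicates. The submitters' processing notes name cutadapt, Bowtie2, SAMtools, deepTools and Genrich without roles and the build mm10; filters, any Tn5 shift and the depth per sample are not given in the sources used here. The deposited signal value is a total over the peak, and the deposited score equals signal per bp times a constant, capped, and adds nothing to them. Deposited −log10 p is the peak's own value at its summit, and the q-value column of the authors' lists holds -1 in 100% of peaks. No column of no sample of the series was found (0).

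Coordinates are mm10, 1-based. Start sites (32216) came from RefSeq tables of GRCm38.p6. Of 21900 protein-coding genes, 98.3% received a strand: 17492 from the promoter table and 4044 by name from GENCODE M1, whose coordinates were not used. Shared peaks were matched to members without replacement on nearest log signal, 3 or 1 per member. Shares carry 95% Wilson intervals and differences Newcombe intervals, which cover counting error only. No test was run, because peaks of a list are not replicates.

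The members, the gene lists and the comparisons were chosen with earlier results of these data known. Named were the 15 genes nearest to the most members (at least 3), the 12 members of highest signal, the 10 of highest −log10 p, each limb patterning gene nearest to a member, and 3 peaks on either side of the threshold. Genes of the other lists were named besides, after their values were seen. A few of the items these rules name are not reported here. Alternatives changed the thresholds, the overlap, the start sites, the gene bodies and the matching. The code was tested on simulated data. Python 3.11.15, pandas 2.3.3, numpy 2.4.6, SciPy 1.17.1 and matplotlib 3.10.9 were used.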

Additional observations from a re-analysis of the deposited data

Results flagged for a closer look

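Strong E10.5 peaks absent from the E11.5 list also occurred outside the bounds of the rule, in peaks that the comparisons above do not use. On chromosome X there were 8 among 98 strong distal peaks (8.16%, 95% Wilson interval 4.19 to 15.3). More than 250 kb from any protein-coding start site there were 153 among 739 strong autosomal peaks (20.7%, 17.9 to 23.8). The share beyond 250 kb was close to the 22.8% found within the distance bounds, and that on chromosome X was lower than on any autosome, where it ran from 13.2% to 28.3%. Within 1 kb of a start site 104 of 10333 strong autosomal peaks (1.01%) were E10.5-only.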

How the results depend on the processing

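Across 20 alternative settings and 13 results, 85 of 110 recomputed values stayed within the bounds set for no change, 25 moved and 0 reversed. The gene-body share of E10.5-only peaks exceeded that of shared peaks in every setting that gave both, by 3.91 to 24.1 percentage points. Doubling the signal threshold moved the most: 191 peaks remained past it, with a gene-body share of 80.1% against 56.0% of shared peaks (24.1 points), median widths of 2934 and 2008 bp, 23 genes with 2 or more and 11 with 3 or more peaks, and 3 limb genes. Counting genes of any kind gave 69.9% and 66.0%, 3.91 points apart. An upper distance of 100 kb gave 60.8% and 52.2%, with a median width of 1694 bp. It left 1529 peaks, with 260 genes at 2 or more and 107 at 3 or more, against 344 and 151 in the main setting. These lower counts still fell within the bounds set for no change. The shared gene-body share was 51.9% with distances taken from the summit and 51.3% with 1 shared peak each. The shared median width was 1469 bp when E11.5 peaks within 1 kb also counted as overlap, 1547 bp when overlap was judged at the summit, 1330.5 bp with 1 shared peak each, 1541 bp when matched on −log10 p and 1579 bp without matching. In alternatives chosen after seeing the data, the shared gene-body share was 51.7% when 1 shared peak was matched on signal and width, and leaving out runs of 5 or more peaks gave widths of 1624.5 and 1426 bp. The latter left 304 genes with 2 or more peaks and 118 with 3 or more. Except where the setting itself changes the peaks or genes counted, the cause was not tested.

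No paired analysis was possible because replicates 1 and 2 enter a single list per stage, and leaving out a replicate was not run since the lists give no value per replicate. Depth is unknown, so how many E10.5-only peaks a deeper E11.5 library would list was not tested. Matching 3 shared peaks per member nearly used up the shared peaks, which is why values with 1 shared peak stand beside them.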

Other observations

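Foxf1 and Creb5, which fall outside the naming rule and were chosen after their values were seen, had all or nearly all of their strong distal peaks in the E10.5 list only. Foxf1, a forkhead gene of mesoderm, had 6 of 6, at 2814 to 5910 in signal and 6.28 to 171 kb from its start. Only 1 of the 6 lay in a gene body, that of Mthfsd, and the E11.5 list held 0 distal peaks assigned to Foxf1, although its promoter was listed at both stages. Creb5, a gene of the CREB family, had 6 of 7, all 6 in its own body (2848 to 5995).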
